A study of Homo sapiens with 2 samples.

Results

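The cytosines of the 2 mitochondrial ribosomal RNAs, 12S rRNA (gene MT-RNR1) and 16S rRNA (gene MT-RNR2), were examined by RNA bisulfite sequencing (RNA BS-Seq) in 2 human cell lines. Bisulfite turns unmodified cytosine into uracil, which is read as T, while 5-methylcytosine (m5C) stays a C, so each cytosine is described by its count of unconverted and of converted reads. The members were the plus-strand positions 652 to 1601 (12S rRNA) and 1675 to 3228 (16S rRNA) of chrM, in the hg19 numbering of the files, with a coverage (unconverted plus converted reads) of at least 10. In MCF10A, a normal mammary epithelial line, 431 of 1584002 kept cytosines met this rule, and in MDA-MB-468, a breast cancer line, 443 of 1271253 did. They made up 453 cytosines in all, of which 421 were kept in both libraries. Total RNA of both lines was selected for poly(A) and treated with bisulfite at 60 degrees for 8 hours, and the labels give no treatment or introduced change for either. Each line gave 1 library, so there are no replicates. Calls of m5C set a cytosine against the background of its own library, and the tests between lines compare 2 libraries and not the 2 lines.

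Mitochondria build their own ribosome from RNA of the mitochondrial genome and proteins imported from the cytoplasm. 12S rRNA is the RNA of its small subunit, which reads the codons of the mitochondrial mRNAs, and 16S rRNA is the RNA of its large subunit, which joins the amino acids. Both genes lie in the mitochondrial genome and are transcribed together with the mRNAs and tRNAs of the same strand, and both rRNAs are known to carry short A tails. Near the 3′ end of 12S rRNA, in the decoding region that touches the codon, METTL15 methylates a cytosine at its N4 (m4C) and NSUN4 methylates a close neighbor to m5C.

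Positions within each rRNA are counted from 1 at its first base, and the positions of the files are larger by 649 in 12S rRNA and by 1672 in 16S rRNA, or by 1671 after base 1437 of 16S rRNA, which is an N in the reference transcript. The sequences shown are those of the reference transcripts of GRCh37 (GENCODE release 44), given 5′ to 3′ with T for U. The mitochondrial sequence behind the numbering of the files differs from them, so the fit was checked on the positions themselves. All 160 file positions in 12S rRNA fell on a cytosine, against 55 at the next best offset, as did 269 of 270 before the N of 16S rRNA and 36 of 36 after it. The stretches below are those on which the results turn. In the decoding region the capitals mark the m4C of METTL15 at 839 and the m5C of NSUN4 at 841. In the stretch around the isolated 12S site the capital marks 818. In both stretches of 16S rRNA with high methylation ratios the capitals mark the cytosines called as m5C sites in both libraries, and in the 16S stretch that differed between the libraries they mark the cytosines called lower in MDA-MB-468. The most covered stretches have no capitals because none of their cytosines was called in both libraries.
12S 825 to 845, decoding region: gcgcgtacacaccgCcCgtca
12S 804 to 832, isolated site: ttagttgaacagggCcctgaagcgcgtac
12S 775 to 803, most covered: gatttagcagtaaactaagagtagagtgc
16S 9 to 37, high methylation ratio: tagcCCCaaaCCCaCtCCaCCttaCtaCC
16S 551 to 579, high methylation ratio: CtaCCtaaaaaatCCCaaaCatataaCtg
16S 1086 to 1114, most covered: cagtacctaacaaacccacaggtcctaaa
16S 1315 to 1343, lower in MDA-MB-468: CCtCgatgttggatCaggaCatCCCgatg

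Over all kept cytosines the nonconversion rate, which served as background, was 1.99% of 60580227 counts in MCF10A and 1.81% of 42429746 counts in MDA-MB-468. The median coverage was 18 reads in both. EGFR, which MDA-MB-468 is known to carry in many copies, had 3562 CPM (counts scaled to the same total in each library) there and 219 in MCF10A. RB1 and SMAD4, lost in MDA-MB-468, had no cytosine with 5 or more reads there, the lowest coverage in the files, and CDKN2A, lost in MCF10A, had none in MCF10A. The keratins KRT5, KRT8, KRT17 and KRT18 were read in both libraries, whereas EPCAM, CDH1 and KRT14 had no kept cytosine in MCF10A, nor had KRT14 in MDA-MB-468. Of the markers of other cells, PTPRC, HBB and COL1A2 were at 0 in both libraries, and COL1A1, a fibroblast collagen, had 98.7 CPM in MDA-MB-468 and no kept cytosine in MCF10A. The part of such cells in the results was not tested.

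16S rRNA held nearly all m5C calls, and 12S rRNA was mostly converted. In MCF10A, 577 of 18598 counts over 141 cytosines of 12S rRNA were unconverted, or 3.10% (95% Wilson interval 2.86% to 3.36%). In MDA-MB-468 the value for 12S rRNA was 1149 of 74606 counts over 156 cytosines, or 1.54% (1.45% to 1.63%). The pooled rate of 16S rRNA was 10.3% in MCF10A (3866 of 37455 counts over 290 cytosines, 10.02% to 10.63%) against 2.55% in MDA-MB-468 (3305 of 129452 counts over 287 cytosines, 2.47% to 2.64%). These intervals cover counting error only, and they are too narrow because a read gives counts at several cytosines. The pooled rate hid a wide spread in 16S rRNA. The median methylation ratio (unconverted reads over coverage) of a 16S cytosine was 7.99% (MCF10A) and 3.52% (MDA-MB-468), and the upper quartile was 55.2% (MCF10A) and 16.7% (MDA-MB-468). In 12S rRNA the medians were 4.69% and 2.29%, and the highest ratios 28.6% and 42.1%. A ratio of 20% or more was found at 100 and 68 cytosines of 16S rRNA, and at 3 and 4 of 12S rRNA.

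An m5C site was called where Fisher's exact test against the background gave a Benjamini-Hochberg adjusted p below 0.05, the adjustment running over every kept cytosine of the library. In MCF10A, 160 of the 431 mitochondrial rRNA cytosines were called (37.1%), against 0.960% of all kept cytosines. In MDA-MB-468, 99 of 443 were called (22.3%), against 0.840% of all kept cytosines. By rRNA, 9 of 141 (6.38%) and 151 of 290 (52.1%) were called in MCF10A for 12S and 16S rRNA, and 5 of 156 (3.21%) and 94 of 287 (32.8%) in MDA-MB-468. Calls depended on coverage as well as ratio. In MCF10A the lowest ratio called was 4.42% (30 of 678 reads, 16S 1104) and the highest not called was 19.0% (4 of 21 reads, 16S 1373). Among the 280 cytosines of 16S rRNA kept in both libraries, 93 were called in both, 48 in MCF10A alone and 0 in MDA-MB-468 alone, so that the shared calls were 66.0% of those of MCF10A and 100% of those of MDA-MB-468. Among the 141 of 12S rRNA, 3 were called in both, 6 in MCF10A alone and 1 in MDA-MB-468 alone. The share of calls common to both libraries was not taken over all cytosines, so these counts have no baseline. Against the background of the other mitochondrial plus-strand cytosines, described next, the calls were 80 and 53, all of them in 16S rRNA.

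**Figure D1:**
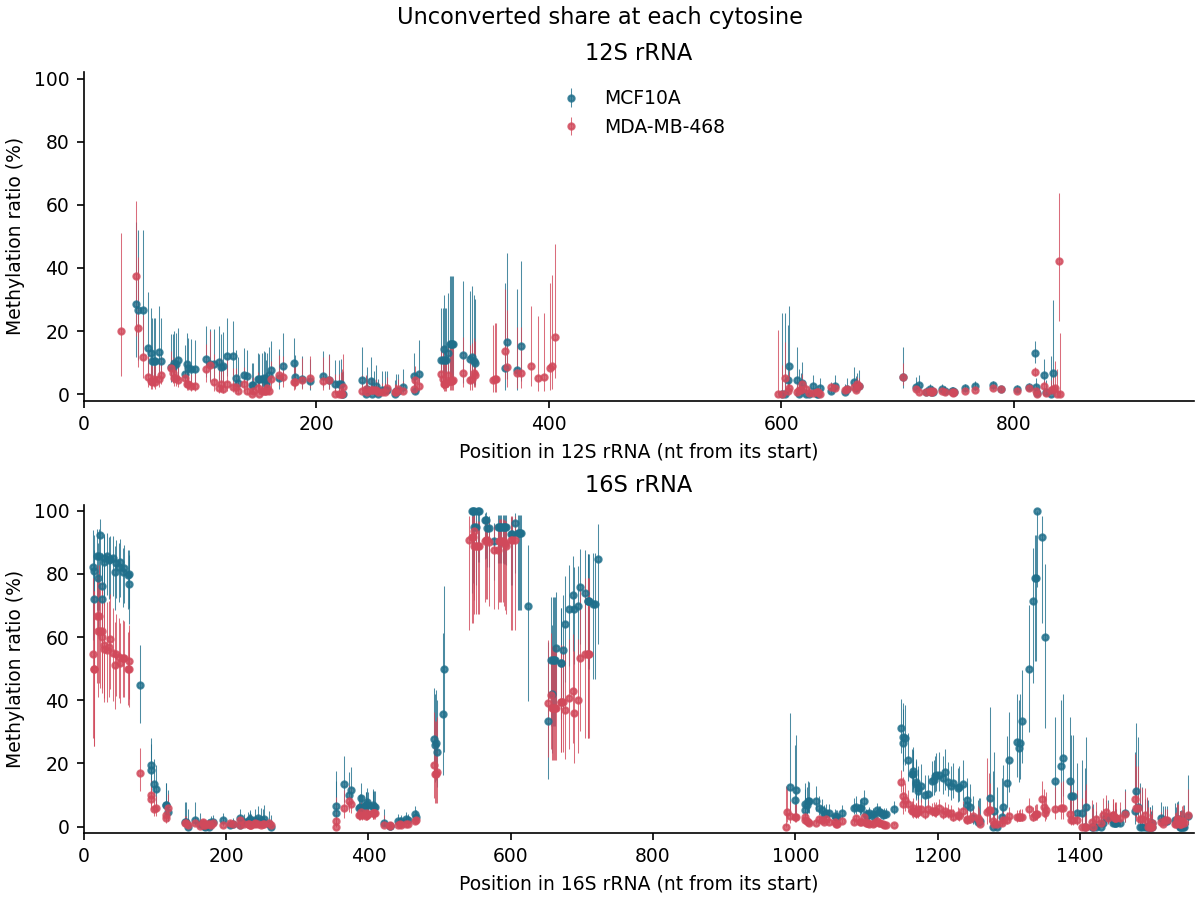
Methylation ratio (%) of each kept cytosine of 12S rRNA (upper) and 16S rRNA (lower) against its position (nt from the start of the rRNA) in MCF10A (blue) and MDA-MB-468 (red), 1 library each; points are ratios and lines are 95% Wilson intervals. In 16S rRNA the cytosines from 13 to 64 and from 542 to 710 reached high ratios in both libraries, those from 1300 to 1351 in MCF10A, and the stretches without points had no kept cytosine.

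Compared with the rest of the mitochondrial transcriptome, both rRNAs had a lower pooled rate. The other plus-strand cytosines of chrM, which cover most mRNAs and tRNAs, had a pooled rate of 14.4% over 1545 cytosines in MCF10A and 10.4% over 1232 in MDA-MB-468, and 69.1% and 58.7% of them were called. Nuclear exons had pooled rates of 1.94% and 1.77%. The order from nuclear exons through 16S rRNA to the other mitochondrial transcripts was the same in both libraries, and the pooled rate of 12S rRNA lay above the nuclear one in MCF10A and below it in MDA-MB-468. Per cytosine, 12S rRNA had the medians of 4.69% and 2.29% given above, and nuclear exons a median of 0 in each library. These medians cannot be set against each other, because coverage differed. The median coverage was 63 (MCF10A) and 104.5 reads (MDA-MB-468) in 12S rRNA, and 18 in nuclear exons, where a low rate mostly gives 0. All values of these classes are descriptions, with no test, because cytosines share reads and there is 1 library a line. The minus strand opposite the rRNAs stood far apart. Its 118 kept cytosines in MCF10A were unconverted in 3409 of 3429 counts (99.4%) and its 91 in MDA-MB-468 in 2555 of 2569 (99.5%), and every one of them was called. Elsewhere on the minus strand the pooled rates were 14.4% and 12.02%. Of the opposite-strand cytosines 4 lay in 12S rRNA, all in MCF10A and each with 10 unconverted reads of 10, and the rest lay in 16S rRNA.

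**Figure D2:**
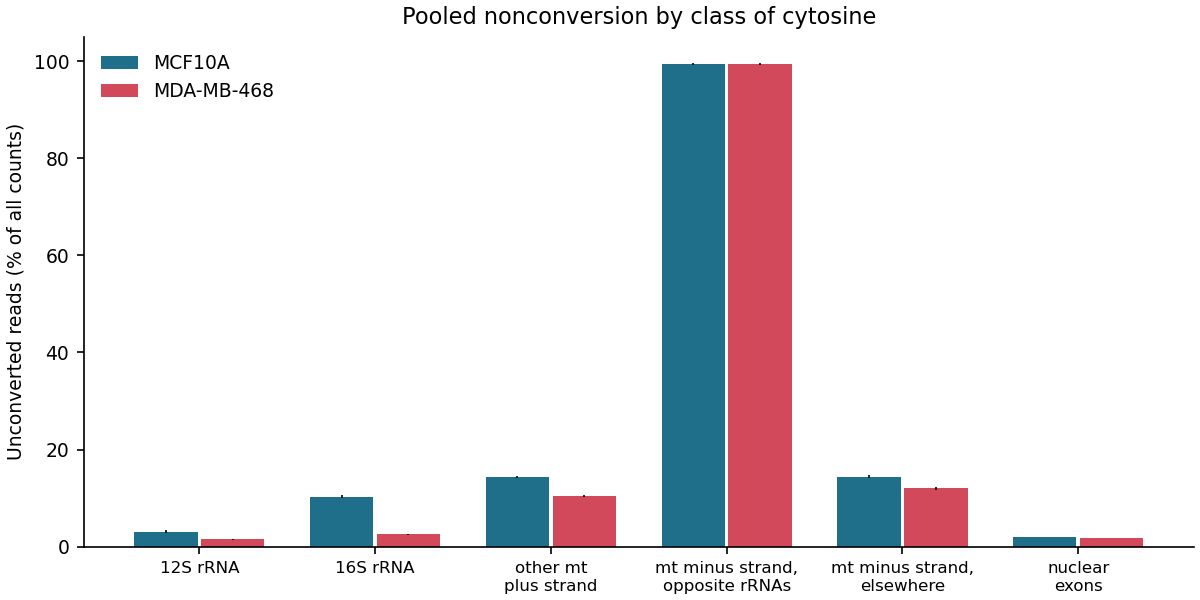
Pooled share of unconverted reads (% of all counts, linear axis from 0) for 6 classes of kept cytosines in MCF10A (blue) and MDA-MB-468 (red); bars are pooled values and black lines are 95% Wilson intervals. Both rRNAs lie below the other plus-strand mitochondrial cytosines (14.4% and 10.4%), and the minus strand opposite the rRNAs is above 99% in both libraries.

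12S rRNA was covered at 141 of its 253 cytosines in MCF10A (55.7%) and at 156 in MDA-MB-468 (61.7%). No cytosine was kept from 377 to 600 in MCF10A, nor from 406 to 596 in MDA-MB-468, and none after 834 and 840. Ratios were high at its 5′ end. In MCF10A the 3 cytosines 45, 47 and 51 formed the only run of high ratios in 12S rRNA, a run being at least 3 successive kept cytosines with a ratio of 20% or more, and together they had 12 unconverted reads of 44 (27.3%, 16.4% to 41.9%). In MDA-MB-468 the corresponding run was formed by 32, 45 and 47, also with 12 unconverted counts, of 45 (26.7%, 15.96% to 41.04%). 12S 45 and 12S 47 were called in both libraries, but their coverage was only 14 to 19 reads. From there the ratio went down along the rRNA. The pooled rate in MCF10A was 10.02% from 51 to 100, 7.32% from 101 to 150, 5.78% from 151 to 200 and 2.48% from 201 to 250, and in MDA-MB-468 it was 4.81%, 2.74%, 2.88% and 1.503% in the same windows. It was higher again from 301 to 350, beside the uncovered stretch, at 12.5% and 4.91%. From 701 to 750 it was 1.23% of 5043 counts and 0.855% of 30867 counts.

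The deepest 12S cytosines were close to the background. 12S 789 had 16 unconverted reads of 1026 in MCF10A (1.56%) against 71 of 4092 in MDA-MB-468 (1.74%). 12S 782 had 29 of 1005 (2.89%) and 73 of 3984 (1.83%). Neither was called in either library, and these cytosines lie in the stretch labelled most covered, whose 3 cytosines had no call. Among 12S cytosines read at least 20 times in each library, of which there were 123, the highest mean ratios belonged to 12S 55 (14.8% and 5.43%), 12S 818 (13.1% and 7.13%), 12S 105 (11.3% and 8.14%), 12S 313 (13.0% and 6.25%) and 12S 109 (9.62% and 9.26%). Of these, 12S 818 was called in both libraries and 12S 105 in MCF10A with an adjusted p of 0.0266 by Fisher's exact test, and the other three were called in neither.

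12S 818, at position 1467 of the files, stood out from its own neighbors. It was unconverted in 48 of 367 reads in MCF10A (13.1%, 10.01% to 16.91%, Fisher's exact test, adjusted p = 1.56e-21) and in 96 of 1347 reads in MDA-MB-468 (7.13%, 5.87% to 8.63%, adjusted p = 9.71e-26). The nearest upstream cytosine, 813, had 2.18% of 734 reads and 1.99% of 2913. Directly downstream, 819 had 5 of 224 reads (2.23%) and 8 of 893 (0.896%), and 820 had 1 of 220 (0.455%) and 2 of 885 (0.226%). The next cytosine, 826, was higher, with 9 of 149 (6.04%) and 13 of 490 (2.65%), and was called in neither library. The 3 adjacent cytosines of this CCC triplet therefore differed, the 5′ one having the high ratio in both libraries, whereas the median difference between kept 12S cytosines at most 10 nt apart was 1.35 percentage points in MCF10A and smaller in MDA-MB-468. The coverage also changed from 818 to 819, from 367 to 224 and from 1347 to 893. Its position among its neighbors was singled out after its values were seen, and both calls were lost against the background of the other mitochondrial plus-strand cytosines (Fisher's exact test, adjusted p = 1 in each library). The ratio at 818 did not pass the test of a difference between libraries (Fisher's exact test, adjusted p = 0.438).

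The decoding region was reached by few reads. In MDA-MB-468, coverage fell from 370 at 12S 828 to 156 at 832, 113 at 834, 49 at 836, 44 at 837, 19 at 839 and 16 at 840. In MCF10A it fell from 118 at 828 to 28 at 832, 15 at 834 and 5 at 836, the last cytosine with a row there. 12S 839, the m4C of METTL15, was unconverted in 8 of 19 reads in MDA-MB-468 (42.1%, 23.1% to 63.7%, adjusted p = 2.24e-07 by Fisher's exact test) and had no row in MCF10A, where the rows start at 5 reads. Its neighbors on either side were converted. 12S 837 had 0 of 44 unconverted reads, which allows a share of up to 6.82% if up to 3 counts may be missed (the Wilson limit is 8.03%). 12S 840 had 0 of 16, which allows up to 18.8% by the same reckoning (Wilson 19.4%). 12S 836 had 1 of 49 (2.04%). 12S 839 therefore had the highest ratio of 12S rRNA in that library, between neighbors with none. It is among the 5 cytosines of 12S rRNA called as m5C sites in MDA-MB-468, although the modification known there is m4C. Its call was lost against the background of the other mitochondrial plus-strand cytosines (Fisher's exact test, adjusted p = 0.126). 12S 841, the m5C of NSUN4, had no row in either library, and its methylation is not analysed here.

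16S rRNA was covered at 289 of its 397 cytosines in MCF10A (72.8%) and at 286 in MDA-MB-468 (72.0%), with no kept cytosine from 724 to 992 and from 711 to 986, and none from 264 to 353 in either. Its high ratios lay in long runs. In MCF10A the run from 13 to 79 (positions 1685 to 1751 of the files) held 25 cytosines, unconverted in 951 of 1187 counts (80.1%, 77.8% to 82.3%). In MDA-MB-468 the run from 13 to 64 held 24 cytosines with 509 of 926 counts (55.0%, 51.8% to 58.1%). Both began at the same cytosine, near the 5′ end of the rRNA. A longer run went from 492 to 723 in MCF10A (2164 to 2395 of the files), with 57 cytosines and 1101 of 1452 counts unconverted (75.8%, 73.6% to 78.0%), and from 542 to 710 in MDA-MB-468 (2214 to 2382), with 44 cytosines and 568 of 872 counts (65.1%, 61.9% to 68.2%). MCF10A had another pair of runs, from 1148 to 1159 (5 cytosines, 122 of 453 counts, 26.9%) and from 1300 to 1351 (12 cytosines, 122 of 289 counts, 42.2%), which MDA-MB-468 did not have. All cytosines in these 16S runs, which were chosen for ratios far above the background, were called, 99 (MCF10A) and 68 (MDA-MB-468). Over both rRNAs, 69 cytosines were in a run in each library, which is 67.6% of those in runs of MCF10A and 97.2% of those of MDA-MB-468. Not all could be shared, since 92 run cytosines of MCF10A and 69 of MDA-MB-468 were kept in the other library.

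The highest ratios shared by both libraries were found from 545 to 606. The 5 cytosines with the highest mean ratio at 20 reads or more in each library were 16S 564, 565, 566, 584 and 585, and those from 564 to 566 are the CCC of the stretch from 551 to 579. 16S 565 was unconverted in 33 of 34 reads in MCF10A (97.1%, adjusted p = 8.23e-52) and in 20 of 22 in MDA-MB-468 (90.9%, adjusted p = 5.41e-30 by Fisher's exact test). 16S 584 and 16S 585 had the same counts as each other, 38 of 40 and 19 of 21. All 8 cytosines printed for that stretch were called in both libraries. Over the window from 551 to 600 the 16 cytosines had 532 unconverted and 27 converted counts in MCF10A (95.2%), where MDA-MB-468 had 294 and 34 (89.6%). Within the same run the ratio was not even. From 652 to 694 it lay between 33.3% and 73.3% in MCF10A and between 36.0% and 42.9% in MDA-MB-468, and from 705 to 710 it was 71.4% to 73.9% and 54.5%.

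Runs were chosen by ratio, so a higher unconverted share inside them than outside follows from the choice. In counts, cytosines inside runs had more unconverted and far fewer converted reads than the others. The median 16S cytosine inside a run had 20 unconverted and 7 converted reads in MCF10A, and 16 and 7.5 in MDA-MB-468. Outside runs it had 4 unconverted and 106 converted reads in MCF10A, and 7 and 254 in MDA-MB-468. Runs thus lay where total coverage was low, with a median of 29 and 23.5 reads inside against 118 and 266 outside. The pooled rate outside the runs, lowered by the same choice, was 4.61% of 34074 counts (MCF10A) and 1.75% of 127654 (MDA-MB-468). Some successive cytosines in runs had identical counts. Of pairs at most 10 nt apart within 16S runs, 18 of 89 (MCF10A) and 21 of 65 (MDA-MB-468) had the same counts of both kinds. The median difference in ratio between such neighbors was 2.46 and 1.55 percentage points. Over all 16S pairs at that distance 30 of 264 and 31 of 263 were identical, and the median difference was smaller, at 1.015 and 0.597 points. A pair of cytosines read by the same fragments is not independent, so a run counts neither as many separate sites nor as many tests.

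**Figure D3:**
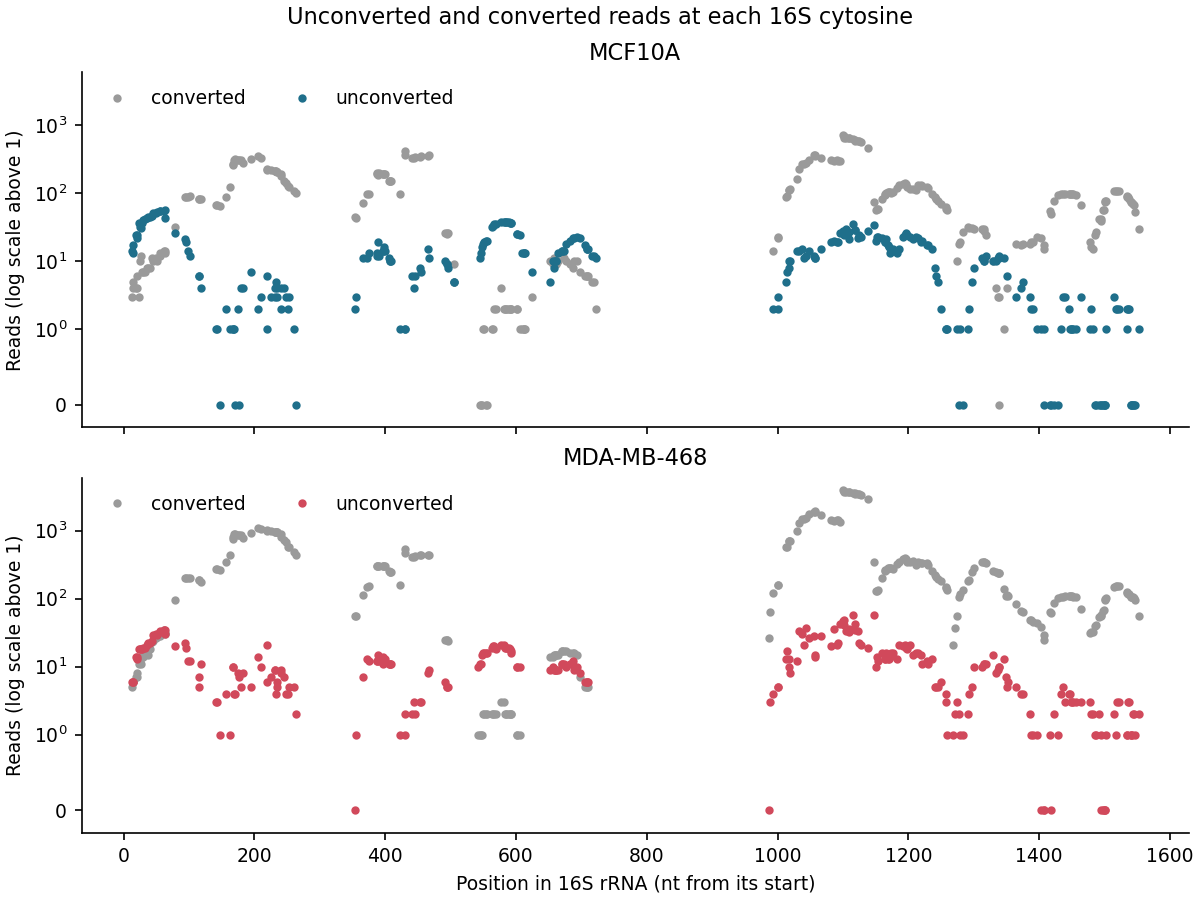
Unconverted (colored) and converted (gray) reads at each kept cytosine of 16S rRNA against position (nt), in MCF10A (upper) and MDA-MB-468 (lower), on a log scale above 1 with 0 shown at the base. Between the runs converted reads mostly exceed unconverted ones by far. In the runs from 13 to 64 and from 542 to 710 they mostly drop to the level of the unconverted reads or below it. From 652 to 694 converted reads stay above unconverted ones in MDA-MB-468.

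The position that did not fall on a reference cytosine lay in a run. At position 2354 of the files (16S 682), where the reference transcript has T, 20 of 29 reads in MCF10A (69.0%) and also 11 of 27 in MDA-MB-468 (40.7%) were counted as unconverted. The flanking cytosines 677 and 687 had 64.3% and 73.3% (MCF10A) and 37.04% and 42.86% (MDA-MB-468). The value at 682 thus lay between those of its neighbors in both libraries.

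Opposite these runs the minus strand was unconverted where it was covered. In MCF10A, 12 minus-strand cytosines lay within the run from 492 to 723, with 225 of 226 counts unconverted, 15 within the run from 1300 to 1351, with 1002 of 1003, and 4 within the run from 1148 to 1159, with 64 of 67 (95.5%). In MDA-MB-468, 7 lay within the run from 542 to 710, with 106 of 106 counts unconverted. None was kept opposite the runs at the 5′ end of 16S rRNA in either library. Most opposite-strand cytosines lay outside the runs in 16S rRNA, 83 of 114 for MCF10A and 84 of 91 for MDA-MB-468. The part of opposite-strand reads in the ratios of the plus strand was not tested.

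Base composition differed among the runs. 16S rRNA as a whole holds 25.5% C and 17.3% G. The MCF10A run from 13 to 79 held 37.3% C and 7.46% G, and that from 492 to 723 held 28.4% C and 11.2% G. Both of the runs found in both libraries were thus poorer in G than the whole rRNA, and the stretches printed for them hold a single G each. The run from 1300 to 1351, found in MCF10A, held 28.8% G. With RNA structure predicted at 70 degrees, 22 of the kept 16S cytosines were paired in each library. Their pooled rate was 3.34% (MCF10A) and 1.25% (MDA-MB-468), below the 11.4% and 2.79% of the unpaired ones. The prediction left 92.4% and 92.3% of the 16S cytosines unpaired, among them all cytosines of the 16S runs. Outside the runs, paired or not, the pooled rate of 16S rRNA was 4.61% and 1.75%. The part of structure in the ratios was not tested. In 12S rRNA only 5 were paired, with 2.37% against 3.12% unpaired in MCF10A and, the other way round, 1.72% against 1.54% in MDA-MB-468. The base that follows the cytosine went with smaller differences. In 16S rRNA the pooled rate lay between 8.87% (before U) and 11.7% (before A) in MCF10A, and between 2.33% (before U) and 2.89% (before A) in MDA-MB-468. In 12S rRNA cytosines before A also had the highest pooled rate (3.80% and 2.07%) and those before U the lowest (2.07% and 1.27%).

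Between the runs the conversion of 16S rRNA varied. The window from 351 to 400 had a pooled rate of 7.51% in MCF10A with 9 of 13 cytosines called, and 4.32% in MDA-MB-468 with 2 of 13 called. Over the window from 151 to 200 the pooled rate was 0.790% of 2912 counts (MCF10A) and 0.781% of 8454 (MDA-MB-468), and from 201 to 250 it was 1.51% and 0.907%. The CCCC at 167 to 170 had 3 unconverted of 1162 counts in MCF10A (0.258%) against 28 of 3385 in MDA-MB-468 (0.827%). The CCCCC at 1498 to 1502 had 1 of 344 (0.291%) and 1 of 429 (0.233%). The CCC at 591 to 593 had 110 of 116 (94.8%) and 51 of 57 (89.5%), and the CCC at 62 to 64 had 154 of 195 (79.0%) and 98 of 193 (50.8%). Rows of cytosines were thus found with low and with high ratios. From 1401 to the 3′ end no cytosine was called in either library, and the pooled rates of the windows of 50 nt from 1401 to 1550 lay between 1.25% and 1.38% in MCF10A and between 1.34% and 2.52% in MDA-MB-468. The windows from 1151 to 1250 lay between these extremes, at 15.8% and 12.5% in MCF10A, with all 18 and 9 of 13 cytosines called, and at 5.31% and 3.89% in MDA-MB-468, with 12 of 18 and 2 of 13 called.

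Across both rRNAs a higher coverage went with a lower ratio. Over the cytosines kept in both libraries Spearman's rho between coverage and ratio was -0.65 (MCF10A) and -0.47 (MDA-MB-468) for 12S rRNA (141 cytosines), and -0.50 and -0.67 for 16S rRNA (280 cytosines). No ratio of 20% or more was found at a coverage of 200 or more, where 16S cytosines had ratios up to 9.18% (63 cytosines, MCF10A) and 14.1% (128 cytosines, MDA-MB-468). Of the 16S cytosines with 10 to 19 reads, 28 of 35 (MCF10A) and 21 of 21 (MDA-MB-468) had a ratio of 20% or more. Coverage is the denominator of the ratio and cytosines share reads, so these coefficients are descriptions.

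**Figure D4:**
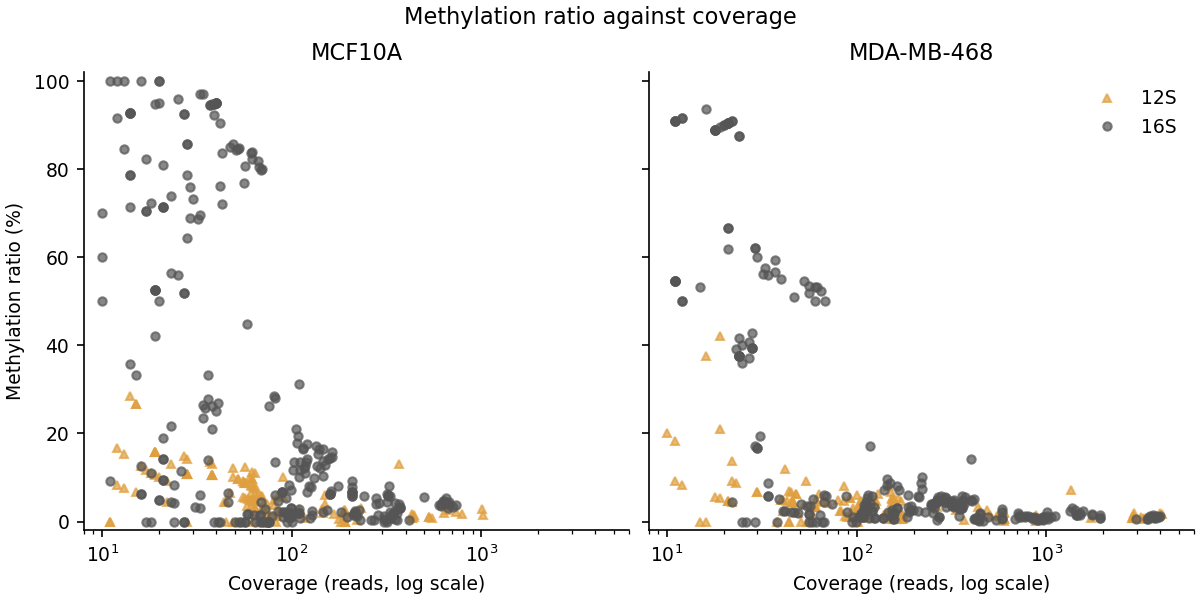
Methylation ratio (%) against coverage (reads, log scale) for the kept cytosines of 12S rRNA (triangles) and 16S rRNA (circles), in MCF10A (left) and MDA-MB-468 (right). At coverages of 200 or more no ratio exceeds 14.1%, and all but 2 of the 16S ratios of 20% or more lie below 100 reads.

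The libraries were then compared at the 421 cytosines kept in both, by Fisher's exact test (two-sided) at each and Benjamini-Hochberg adjustment over all 812729 cytosines kept in both. In 16S rRNA 29 of 280 cytosines (10.4%) were lower in MDA-MB-468, against 0.0691% of all cytosines tested, and 0 were higher, against 0.0202%. At an unadjusted p below 0.05, 98 were lower and 0 higher. In 12S rRNA no cytosine of 141 was called in either direction, and at an unadjusted p below 0.05, 7 were lower and 0 higher. With a minimum difference of 10 percentage points 12 cytosines of 16S rRNA were called lower. No share over all tested cytosines was taken at the unadjusted limit or with this minimum, so those counts have no baseline. The direction was shared well beyond the calls. The ratio was lower in MDA-MB-468 at 226 cytosines of 16S rRNA and higher at 47, with a median difference of -4.23 percentage points, and lower at 110 and higher at 29 in 12S rRNA, with a median of -2.15. At the 1063 other plus-strand mitochondrial cytosines the median was -0.410 points, with 4 called lower and 2 called higher. Of these 1063, the ratio was lower in MDA-MB-468 at 557 and higher at 416. Over all 812729 cytosines it was lower at 274856, higher at 195440 and equal at 342433. A lower ratio was thus the more frequent outside the rRNAs as well.

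The calls fell into a pair of places in 16S rRNA. From 1051 to 1150, where coverage was highest, 16 cytosines were lower, with differences of -5.00 to -2.20 percentage points. 16S 1100, the most covered cytosine of 16S rRNA in both libraries, had 28 unconverted of 734 reads in MCF10A (3.81%) against 47 of 4004 in MDA-MB-468 (1.17%, adjusted p = 0.00435 by Fisher's exact test), and 16S 1101 had 24 of 711 (3.38%) and 41 of 3916 (1.05%, adjusted p = 0.0197). Neither was called as an m5C site in either library, but with a coverage minimum of 20 the call at 16S 1100 in MCF10A was made (adjusted p = 0.0387 by Fisher's exact test). From 1301 to 1350 all 10 cytosines kept in both were lower, with differences of -96.0 to -21.9 points, and 16S 1351 was lower too (-55.8 points). 16S 1339 had 12 unconverted of 12 reads in MCF10A against 10 of 250 in MDA-MB-468 (adjusted p = 2.70e-11 by Fisher's exact test). From 1301 to 1350, of which 1315 to 1343 is printed above, the unconverted counts were 108 in each library. Scaled to the kept counts of each library they were 1.783 CPM in MCF10A and 2.545 CPM in MDA-MB-468. The converted counts were 133 (MCF10A) and 2728 (MDA-MB-468), 20.5 times as many. The cytosines outside these places were 16S 1029 (7.95% and 1.18%) and 16S 1197 (15.9% and 4.69%).

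By the rule for named sites, which asks for 20 reads or more in each library, the largest differences downward were at 16S 1329, 689, 51, 687 and 23. 16S 1329 had 10 of 20 reads in MCF10A against 15 of 269 in MDA-MB-468 (a difference of -44.4 points, Fisher's exact test, adjusted p = 7.02e-04). The other four lie in the runs of both libraries and did not pass the test. 16S 51 had 52 of 62 reads and 29 of 56 (83.9% and 51.8%, Fisher's exact test, adjusted p = 0.244), and 16S 23 had 36 of 39 and 18 of 29 (92.3% and 62.1%, adjusted p = 1). 16S 689 (68.8% and 36.0%) and 16S 687 (73.3% and 42.9%) also had an adjusted p of 1. In the upward direction the largest differences were 3.82 points at 16S 1478, 3.64 at 16S 1492, 3.49 at 12S 285, 2.64 at 16S 1433 and 2.55 at 16S 1447, each with an adjusted p of 1. No cytosine kept in 1 library alone had a ratio of 50% or more at a coverage of at least 20.

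**Figure D5:**
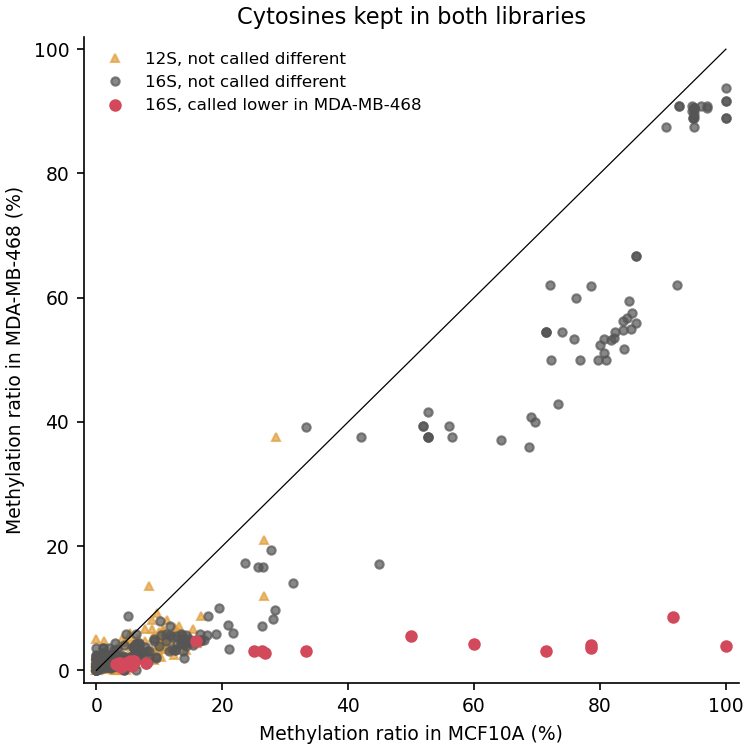
Methylation ratio (%) in MDA-MB-468 against that in MCF10A for the 421 cytosines kept in both libraries; triangles are 12S rRNA, gray circles 16S rRNA, red circles the 29 cytosines of 16S rRNA called lower in MDA-MB-468, and the line marks equal ratios. Most points lie under the line, and the red points with high ratios in MCF10A lie at 8.67% or less in MDA-MB-468.

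Summed over each rRNA, the converted counts differed more between the libraries than the unconverted ones, but this did not hold in every window. Summed over the 280 shared 16S cytosines, the unconverted counts were 3762 (MCF10A) and 3276 (MDA-MB-468), a ratio of 0.871, while the converted counts were 33556 and 125782, a ratio of 3.75. For 12S rRNA the unconverted counts were 577 and 1127 (1.95 times) and the converted ones 18021 and 73169 (4.06 times). Relative to the kept counts of each library, the unconverted counts of 16S rRNA came to 62.1 CPM in MCF10A and to 77.2 CPM in MDA-MB-468. Those of 12S rRNA came to 9.525 CPM in MCF10A and to 26.56 CPM in MDA-MB-468. In the windows of 16S rRNA from 1 to 50 and from 551 to 600, unconverted counts were lower in MDA-MB-468 (611 and 317, 532 and 294). They changed 0.519 and 0.553 times, and the converted counts 1.86 and 1.26 times. In CPM the unconverted counts were 10.09 and 7.47 from 1 to 50, and 8.78 and 6.93 from 551 to 600. From 1101 to 1150 they were higher in MDA-MB-468 (351 and 478, or 5.79 and 11.27 CPM). Converted counts were higher in MDA-MB-468 in all of these windows. These are counts in bulk RNA, in which fewer cells holding a transcript and less transcript per cell cannot be told apart. The part of coverage in the differences of the ratio was not tested.

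In spite of the shift in level, the profile along the rRNAs was alike. Over the 280 cytosines of 16S rRNA kept in both libraries, Pearson's r between the ratios was 0.92 and Spearman's rho 0.88, and over the 141 of 12S rRNA they were 0.74 and 0.74. For the converted counts alone rho was 0.91 in 16S rRNA and 0.87 in 12S rRNA. These values describe cytosines that share reads within each library, and they carry no p-value.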

How the data were processed

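RNA BS-Seq of poly(A)-selected RNA was analysed for MCF10A and MDA-MB-468, 1 library each. Per the study's methods, the authors trimmed reads with Trim Galore, aligned them to hg19 with MeRanGs and called cytosines with MeRanCall at a base quality of at least 30, while the submitters' processing notes list Trim Galore and Bismark, and the versions are not given in the sources used here. The deposited values are raw counts, for every cytosine, of the reads that stayed C and of those that became T, without normalization. The methods state a coverage minimum of 10, but the lowest coverage in the files is 5, so a minimum of 10 was set again. Cytosines on exons of GENCODE release 44 basic transcripts (same strand) or on chrM were kept.

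The background was the share of unconverted counts over the kept cytosines. One-sided Fisher's exact tests against it, and two-sided tests between libraries, were adjusted by the Benjamini-Hochberg method over all kept cytosines, in Python 3.11.15 (scipy 1.17.1, numpy 2.4.6, pandas 2.3.3, numba 0.67.0). QNB, the differential method of the study, was not installed and was not run. Intervals are 95% Wilson intervals. Structure came from RNAfold (ViennaRNA 2.7.2) on the mitochondrial reference at 70 degrees, with windows of 2000 nt and steps of 1000 nt, pairs at most 150 nt apart and a maximum expected accuracy gamma of 0.1, and served as an alternative, not as a filter. Reference transcripts were tied to the files by the offset that put most positions on a cytosine. The code was tested on simulated counts.

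Named sites were, at a coverage of 20 or more in both libraries, the 5 with the highest mean ratio in each rRNA and the 5 with the largest difference in each direction, the 2 of highest coverage in each rRNA and line, and the known modified cytosines of the 12S decoding region. Others named were chosen after their values were seen. The members and lists were chosen with earlier results of these data known. Alternatives covered the coverage minimum, the background, the kept set, the test, a minimum ratio or difference, and predicted structure. The planned binomial form of the test of differences was replaced by a noncentral hypergeometric test, chosen after seeing the data.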

Additional observations from a re-analysis of the deposited data

How the results depend on the processing

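The number of m5C calls depended on what was taken as background. In MCF10A the 160 calls became 80 against the background of all mitochondrial cytosines and 80 against that of the other mitochondrial plus-strand cytosines, and 103 with a minimum ratio of 20%. In MDA-MB-468 the 99 calls became 53 against the other mitochondrial plus-strand cytosines. No 12S call was left against that background in either library. The 9 and 5 calls of 12S rRNA became 3 and 3 with a minimum ratio of 20%, those of MDA-MB-468 became 3 with a coverage minimum of 20, and against all mitochondrial cytosines 0 (MCF10A) and 1 (MDA-MB-468) were left. The 29 cytosines lower in MDA-MB-468 became 12 with a minimum difference of 10 percentage points and 48 by the noncentral hypergeometric test, added after seeing the data, against the odds ratio of 0.820 at the 1063 other mitochondrial plus-strand cytosines. That test also adjusted over 1484 cytosines, those and the rRNA ones, in place of 812729. As a mean over cytosines instead of a pooled rate, 12S rRNA had 6.03% (MCF10A) and 3.80% (MDA-MB-468), and 16S rRNA had 27.9% and 17.5%. With a coverage minimum of 20 the pooled rate of 16S rRNA was 9.63% and 2.385%, and without predicted paired cytosines it was 11.4% and 2.785%. The causes of these changes were not tested. The alternatives left the counts of each cytosine unchanged, so the sign of a named difference in ratio was fixed. The noncentral test set lower and higher against the odds ratio of 0.820 instead, so a small difference could change sides there. At the named sites 423 of the recomputed calls kept their side of the threshold, 16 lost the call and 1 gained it. Of the recomputed differences 117 kept their side, 2 lost the call and 1 gained it. Many of these sites were named for extreme ratios or differences and lay far from the threshold. The tallies therefore do not measure how stable the calls are at other cytosines. The planned binomial test of differences was not run.

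No paired analysis was possible because each line has 1 library. Precision is limited by coverage, since the median cytosine in the runs of 16S rRNA had 29 reads (MCF10A) or 23.5 (MDA-MB-468), and by the reads that neighboring cytosines share. Bisulfite does not tell m5C apart from a cytosine left unconverted for another reason, and no unmodified control RNA was analysed here.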
